A study of Macaca fascicularis with 9 samples.

Results

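Voltage-gated ion channels and potassium channels are described here across the nuclei of the primate thalamus, gene by gene. The set holds the pore and accessory subunit genes whose symbols start with KCN, SCN, CACNA, CACNB or CACNG followed by a family letter or number, and the HCN genes. It has 111 genes of 29,128 features, of which 14,893 carry a symbol. One further gene with a matching symbol was left out by the rule and is not reported here. The members fall into 15 families by symbol, from 14 two-pore-domain potassium channels, 12 potassium channel accessory subunits and 11 Kv1 to Kv4 pore subunits down to 3 HCN channels.

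The nuclei came from frozen thalamus of 9 female cynomolgus monkeys (Macaca fascicularis), 1 library per animal and 3 animals per group. The ASO animals received 1 intrathecal dose of 4 mg of MALAT1 ASO, an antisense oligonucleotide against the nuclear long noncoding RNA MALAT1. The OTV animals received 4 biweekly intravenous doses of OTV:MALAT1 at 30 mpk, in which the oligonucleotide is joined to a transport vehicle. The saline animals received 4 biweekly intravenous doses of saline, and they serve as control for both routes, since no group had an intrathecal injection of saline. In every group the tissue was collected 2 weeks after dosing ended. The sources used here give no ages.

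Potassium channels let potassium leave the cell and pull the membrane towards rest. Kv channels do so after depolarisation, inward rectifiers (KCNJ) and two-pore-domain channels (KCNK) set the resting potential, and calcium-activated channels (KCNMA, KCNN) respond to calcium entry. Sodium channels (SCN) start action potentials, calcium channels (CACNA1 pores with alpha2delta and beta subunits) couple voltage to calcium entry, several CACNG genes encode TARPs that carry AMPA receptors to the membrane, and HCN channels pass a current that opens on hyperpolarisation. Relay neurons of the thalamus are known for bursts that rest on low-threshold calcium channels and HCN channels. Oligodendrocyte precursor cells (OPCs) are known to carry sodium and Kv currents and to lose most of them when they mature into oligodendrocytes, whose membrane is dominated by inward rectifiers.

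The targeted RNA was checked first. MALAT1 made up 6.11, 6.36 and 5.38% of all UMIs in the saline animals, 4.51, 4.15 and 5.60% in the ASO animals and 3.80, 3.25 and 3.12% in the OTV animals. The 79,994 nuclei gave 19,981,249 to 98,850,459 UMIs per animal, and 1522 of them had a barcode that also occurred in another library. The authors' cell types matched their defining markers. Myeloid markers, for example, summed to 4425 to 6475 CPM (UMI counts scaled to a common total in each animal and type) in the nuclei named myeloid and to at most 109 CPM in the other types. The animals differed in their neurons, which numbered 364, 23 and 527 in the saline animals, 18, 17 and 467 in the ASO animals and 98, 112 and 88 in the OTV animals. A region score, the difference between genes of the telencephalon and of the diencephalon in astrocytes on the log2 scale, was 0.86, -3.00 and 3.46 in the saline animals, -3.65, -1.68 and 3.70 in the ASO animals and between -3.95 and -3.40 in the OTV animals. The score was low in every OTV animal and ran from low to high in the other groups, and neurons of saline replicates 1 and 3 and ASO replicate 3 were rich in PDE10A, a gene of striatal neurons, although the label is thalamus. The part of region in the differences between groups was not tested beyond a fit with the score as a term.

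Levels below are CPM of all UMIs of a cell type in an animal, as mean ± SD over the 9 animals unless stated. They are compared between cell types or animals for 1 gene at a time, since CPM is not per length. Of the 111 genes, 81 reached a mean of 5 CPM in at least 1 of the 5 named types, and KCNJ15 and KCNK4 had no UMI. Neurons held the highest mean of 41 of the 81, OPCs of 15, myeloid nuclei of 11, astrocytes of 9 and oligodendrocytes of 5. A gene was taken as carried mainly by a type when its mean there was at least 2 times that in the next type, and 45 genes met this: 26 in neurons, 9 in myeloid nuclei, 4 each in oligodendrocytes and OPCs, and 2 in astrocytes. These are descriptions without a test, since the types were defined from the same counts. The summed level of all members was 22,109 ± 3961 CPM in neurons, 13,380 ± 1162 in OPCs, 5229 ± 1384 in astrocytes, 5217 ± 579 in myeloid nuclei and 2884 ± 362 in oligodendrocytes. OPCs thus stood second to neurons, and oligodendrocytes had the lowest sum. Such a sum leans on the genes with most UMIs. KCNIP4 and KCND2 alone had means of 7723 and 2077 CPM in neurons and 2016 and 3426 CPM in OPCs.

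**Figure D1:**
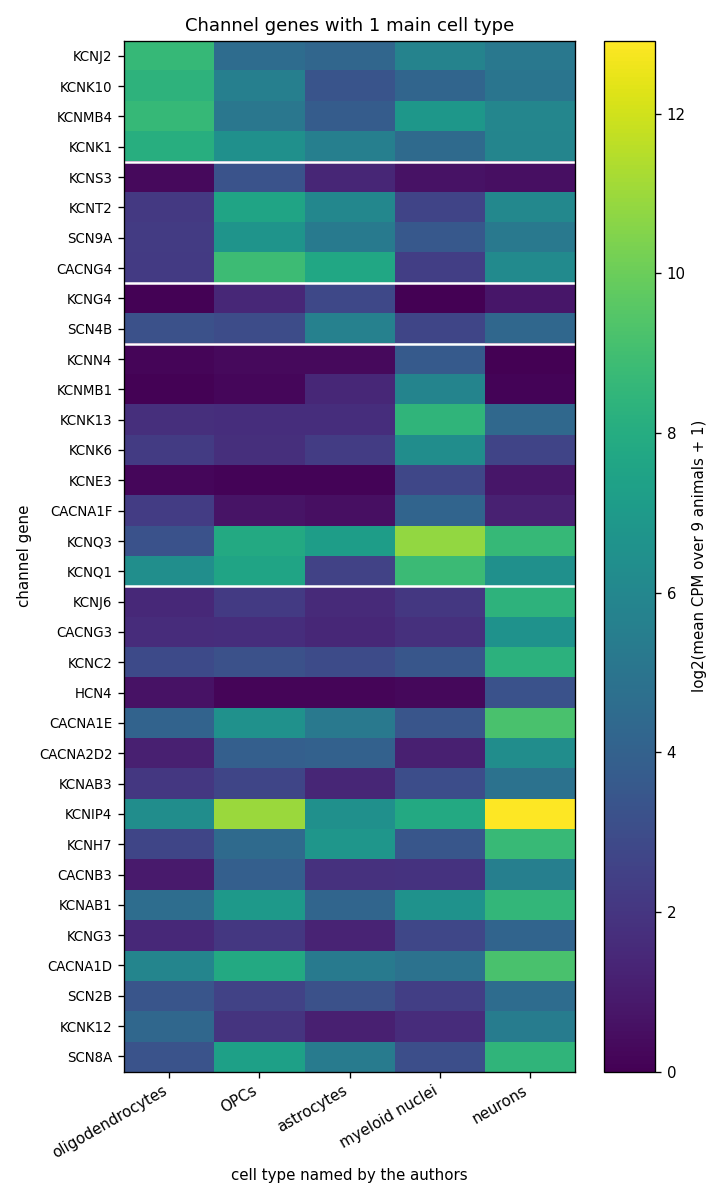
Mean level over 9 animals, as log2(CPM + 1) in colour, of 34 of the 45 genes carried mainly by 1 type, those named in the text (rows, in blocks by that type), in the 5 cell types (columns). Each row is brightest in its own type, with 16 rows in the block of neurons and 8 in that of myeloid nuclei, and OPCs are often the next brightest in the block of neurons.

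Oligodendrocytes mainly carried 4 potassium channel genes. KCNJ2, the strong inward rectifier Kir2.1, ranged over the 9 animals from 296 to 507 CPM (median 393) in oligodendrocytes, and its mean of 397 ± 71.9 was 7.32 times that of the next type. KCNK10, a two-pore-domain channel opened by stretch and lipids, ranged from 240 to 411 CPM (median 334) and was 6.96 times the next type. KCNMB4, an accessory subunit of the BK channel, ranged from 280 to 577 CPM (median 375), and its ratio was 3.61. All were highest in oligodendrocytes in each of the 9 animals. KCNK1, a weakly conducting two-pore-domain channel, had 273 ± 38.0 CPM there and 89.8 ± 16.1 in OPCs. KCNH8, a Kv12 channel of the KCNH family, was also highest in oligodendrocytes at 589 ± 153 CPM but stood only 1.56 times above OPCs, and in 1 animal OPCs were higher.

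These genes did not share 1 pattern over the 7 oligodendrocyte clusters. KCNH8 was 927 ± 212 CPM in cluster 1 and 825 ± 201 in cluster 2 but 134 in cluster 5 and 49.6 ± 28.5 in cluster 10. KCNK10 had the same order at its ends, with 477 ± 88.3 CPM in cluster 1 and 11.0 ± 14.4 in cluster 10. KCNMB4 ran the other way, with 265 ± 76.8 CPM in cluster 1 against 625 ± 135 in cluster 3 and 622 ± 160 in cluster 5. KCNK12, a two-pore-domain subunit related to KCNK13, was 3.69 CPM in cluster 1 and 83.6 ± 42.9 in cluster 10. KCNJ2 was flatter, between 345 ± 64.9 CPM in cluster 1 and 488 ± 82.7 in cluster 10. Clusters 1 and 2 were thus the high end for KCNH8 and KCNK10, and clusters 3, 5 and 10 the high end for KCNMB4 and KCNK12. Clusters were made from these counts, so the differences are descriptions. Cluster 8 had 1657 of its 2768 nuclei from OTV replicate 1.

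**Figure D2:**
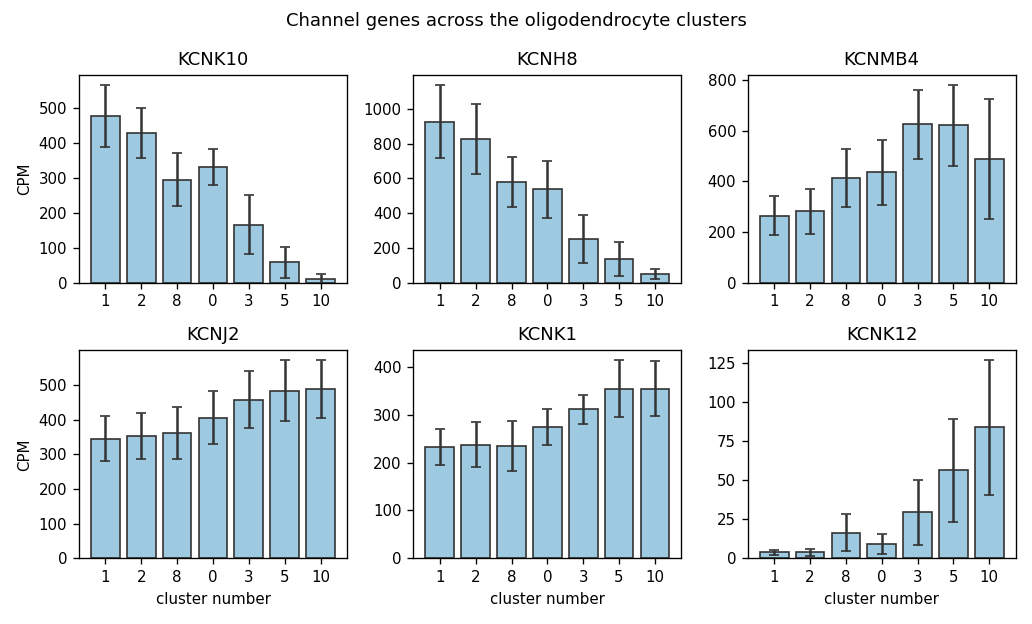
Level in CPM (bars, mean over animals with at least 20 nuclei of the cluster; error bars, SD) of 6 potassium channel genes in the 7 oligodendrocyte clusters, 1 panel per gene with its own axis from 0. KCNH8 and KCNK10 are highest in clusters 1 and 2, KCNMB4 in clusters 3 and 5 and KCNK12 in cluster 10.

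Several pore and accessory genes were high in OPCs. KCND2 and KCND3, the A-type pores Kv4.2 and Kv4.3, were at 3426 ± 577 and 262 ± 34.9 CPM, and KCNIP1, their calcium-binding accessory subunit, at 642 ± 266 CPM. KCND2 was 2435 to 3977 CPM (median 3725) in OPCs, above every other type in all 9 animals, and neurons followed with a mean of 2077. CACNG4, a TARP, ranged from 318 to 685 CPM (median 409), with astrocytes next at a mean of 206. KCNT2, a sodium-activated potassium channel, had 188 ± 22.0 CPM in OPCs against 63.7 in neurons. SCN9A, a sodium channel pore best known from sensory neurons, had 102 ± 32.7 CPM, 2.71 times the next type. CACNA1A, the P/Q-type calcium channel pore, was at 1017 ± 108 CPM against 546 in neurons. SCN1A was close to equal in OPCs (398), astrocytes (342) and neurons (329), as was CACNA2D1 in OPCs (318) and neurons (295). The electrically silent subunit KCNS3 had the largest ratio in OPCs at 5.56, but it rested on a level of 8.83 ± 11.1 CPM that ranged from 0.275 to 35.8.

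The OPC clusters differed. Cluster 13, with 366 nuclei, had 1224 ± 254 CPM of the delayed rectifier pore KCNB2, against 34.2 ± 22.7 in the main cluster 4. KCND2 was 3721 ± 635 CPM in cluster 4 and 855 ± 366 in cluster 13, SCN1A 430 ± 26.8 and 113 CPM, CACNA1A 1102 and 266 CPM, and KCNT2 204 and 43.0 CPM. SCN9A was closer, at 104 ± 36.3 CPM in cluster 4 and 83.4 ± 32.7 in cluster 13, and KCNIP4 was higher in cluster 13, at 3113 ± 967 CPM against 1913 ± 715. Cluster 14 (287 nuclei, 3 animals with at least 20) was near cluster 4 for CACNG4, at 542 and 499 CPM. A pair of small clusters that the authors left unnamed also held the top level of a few genes. Cluster 15 (213 nuclei, 4 animals with at least 20) had 1995 ± 425 CPM of KCNT2, 67.2 ± 22.0 of KCNJ8, the pore of a vascular ATP-sensitive channel, and 44.0 ± 31.7 of KCNE4. Cluster 16 (118 nuclei, 2 animals) had 220 ± 76.9 CPM of KCNN2.

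Myeloid nuclei mainly carried 9 genes. KCNK13, a two-pore-domain channel known from microglia, ranged from 238 to 433 CPM (median 360) and was 17.8 times the next type. KCNQ3, a subunit of the M-current channel, was 1788 ± 405 CPM in myeloid nuclei and 406 in neurons. KCNMB1, a BK accessory subunit, had 55.4 ± 15.4 CPM and a ratio of 32.9, and KCNK6, a two-pore-domain channel, 80.6 ± 23.9 CPM and 15.2. KCNN4, the intermediate-conductance calcium-activated channel of blood cells, had the largest ratio at 43.9 from only 11.6 ± 3.9 CPM. KCNQ1 was 444 CPM in myeloid nuclei and 184 in OPCs, so it was well above the floor elsewhere, as KCNQ3 was. KCNE3 and the calcium channel pore CACNA1F were also among the 9, and CACNA1F reached 10 CPM only in the OTV animals, with 0.528 to 9.51 CPM in the other 6. The annotated gene of KCNMB1 overlaps that of KCNIP1, and KCNIP1 was at 241 CPM in myeloid nuclei. The 2 myeloid clusters were close: KCNQ3 was 1621 CPM in cluster 7 and 1931 in cluster 9, and KCNK13 325 and 369.

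Astrocytes carried SCN4B, a sodium channel beta subunit, at 51.0 ± 17.9 CPM (23.6 to 71.4), 2.73 times the next type. They were also highest for CACNB2, a calcium channel beta subunit (1143 ± 255 CPM against 830 in neurons), for KCNJ16, the inward rectifier Kir5.1 (53.6 ± 36.9 against 32.9 in OPCs), and for KCNA2, the pore Kv1.2 (30.5 CPM). KCNG4 passed the ratio at 5.91 ± 6.37 CPM, a mean that included an animal at 0.

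Neurons mainly carried 26 genes, from several families. KCNC2, the Kv3.2 pore of fast-spiking cells, had 312 ± 236 CPM in neurons, 31.5 times the next type. KCNJ6, the G-protein-gated inward rectifier GIRK2, had 328 ± 264 CPM and a ratio of 92.6, the widest among the genes that reached 5 CPM, and the TARP gene CACNG3 94.1 ± 87.7 CPM and 37.3. CACNA1E, the R-type calcium pore, had 594 ± 391 CPM and a ratio of 6.41. HCN4, a pacemaker channel, was 8.64 ± 10.7 CPM in neurons and under 1 elsewhere. That mean rested on the OTV animals, with neurons at 0.615 to 6.38 CPM in saline, 0 to 0.992 in ASO and 17.9 to 28.1 in OTV, and neurons were the highest type in 6 of 9 animals. The sodium channel pores SCN2A and SCN8A had 473 ± 130 and 344 ± 85.0 CPM in neurons, 1.95 and 2.13 times OPCs. The spread of neuronal levels between animals was wide, as the SDs show. KCNA1 and KCNA3 stayed below 5 CPM in every type, at 4.01 and 0.416 CPM in neurons. KCNJ3, CACNA1B, CACNA1C, CACNA1G, CACNG8 and HCN2 were not analysed here.

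OPCs were then set against oligodendrocytes, animal by animal, as log2 of the ratio of CPM + 1. Of the 62 members with at least 5 CPM in 1 of these types, 36 were at least 2-fold higher in OPCs in all 9 animals and 4 at least 2-fold higher in oligodendrocytes. Over all 11,939 features with that level, 13.1% were that much higher in OPCs and 6.32% in oligodendrocytes. The member median was a log2 ratio of 2.49, and 44 members were higher in OPCs in all 9 animals and 7 in oligodendrocytes, against 3658 and 3433 over all features. No test was made, since the types were drawn from these counts.

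All 6 sodium channel pores at the level were at least 2-fold higher in OPCs in every animal, from SCN7A at a mean log2 ratio of 4.16 to SCN1A at 5.55. Of the Kv1 to Kv4 pores 6 of 7 were, all but KCNC2. CACNA1A, CACNA1D and CACNA1E, 3 of 4 calcium channel pores, and 3 of 4 alpha2delta subunits met the same mark. CACNG4 had the largest ratio, a log2 of 6.87 ± 0.58 (SD, n = 9), with 461 ± 139 CPM in OPCs and 3.62 ± 3.62 in oligodendrocytes. CACNA1A had 1017 ± 108 CPM in OPCs and 11.4 ± 4.53 in oligodendrocytes, a log2 ratio of 6.44 ± 0.51 that ran from 5.61 to 7.19. KCND3 was at 6.55, KCND2 at 6.44, KCNIP1 at 6.43, KCNMA1 at 5.63, KCNT2 at 5.51 and SCN2A at 5.23. KCND2 varied most of these, from 4.44 to 8.68, with an oligodendrocyte level of 51.8 ± 40.6 CPM. OPC markers summed to 188 to 636 CPM in oligodendrocytes and oligodendrocyte markers to 317 to 1023 CPM in OPCs, and the part of such RNA in low levels was not tested.

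Few members stood in the other direction. KCNJ2 was 22.7 ± 6.33 CPM in OPCs and 397 ± 71.9 in oligodendrocytes, a log2 ratio of -4.09 ± 0.52 (-4.91 to -3.27). KCNMB4 was at -3.51 ± 0.46, KCNK10 at -2.77 ± 0.29 and KCNK1 at -1.61 ± 0.27, and these made up the 4 genes past 2-fold in every animal. KCNK12 had a mean of -2.16 but reached only -0.15 in 1 animal. KCNN3, a small-conductance calcium-activated channel, was at -1.51 and SCN2B at -0.91, both lower in OPCs in all 9 animals. Two-pore-domain channels were split, with KCNK2, KCNK3 and KCNK9 past 2-fold in OPCs and KCNK1 and KCNK10 in oligodendrocytes. So were inward rectifiers, with KCNJ16 in OPCs (32.9 ± 2.29 CPM) and KCNJ2 in oligodendrocytes. None of the 4 sodium channel beta subunits passed in either direction.

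**Figure D3:**
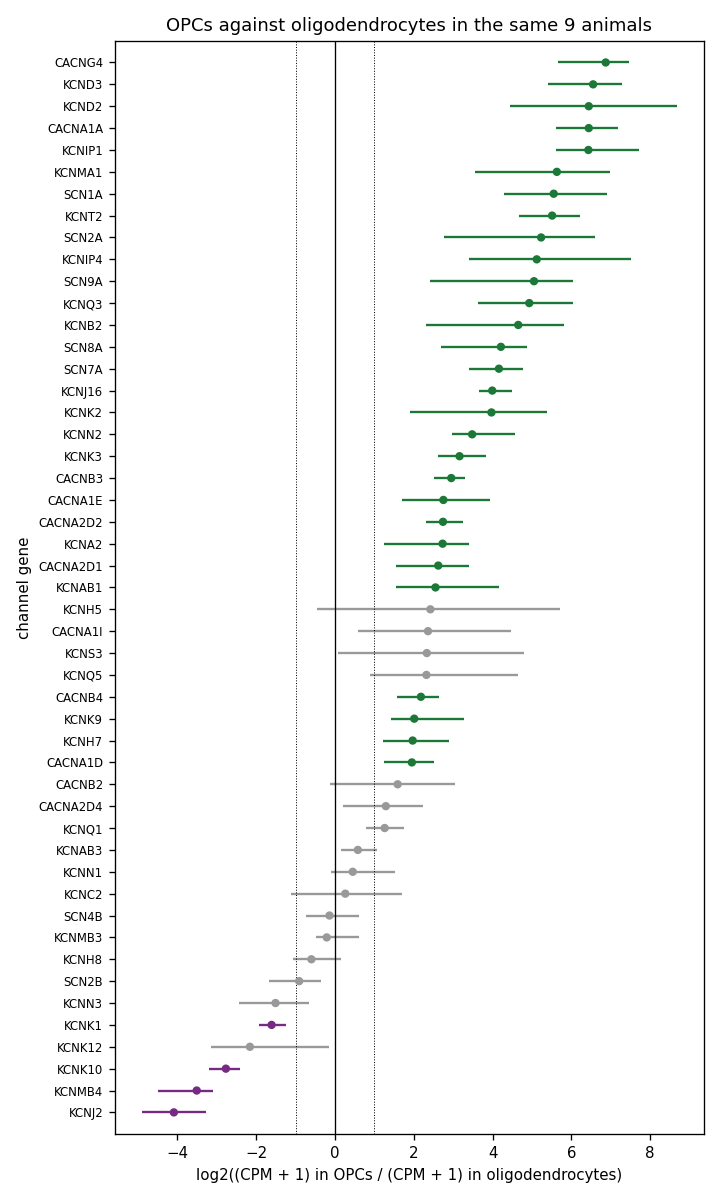
Log2 ratio of CPM + 1 in OPCs over oligodendrocytes for 49 of the 62 genes with at least 5 CPM in 1 of these types, those named in the text (points, mean of 9 animals; lines, lowest to highest animal; dotted lines, 2-fold; green and purple, at least 2-fold in every animal in OPCs or oligodendrocytes; grey, the others). The 29 drawn genes at least 2-fold higher in OPCs in every animal lie to the right, up to CACNG4 at 6.87, and 4 lie to the left, down to KCNJ2 at -4.09.

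The groups were compared within each cell type by edgeR's quasi-likelihood test on counts summed per animal, with Benjamini-Hochberg adjustment over all genes tested in that type. Calls were made at an adjusted p under 0.05, and fold changes are log2 ± SE. Of the 111 members, 95 were tested in at least 1 type, 46 in all 5 and 16 in none. The tests of OTV against saline and OTV against ASO share the OTV animals. Neurons of ASO replicates 1 and 2 numbered 18 and 17, so neuron results rest on few nuclei in these animals. Where the annotated gene of a member overlaps another, as KCNIP4 does PACRGL, KCND2 TSPAN12, KCNJ1 KCNJ5 and CACNA2D4 LRTM2, reads of the pair may not be told apart, since the use of strand in the counting is not stated.

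After the intrathecal ASO, few channel genes differed from saline. In OPCs 1 of 74 tested members rose and 1 fell, beside 0.114% and 0.148% of all 14,894 genes. KCNQ5, an M-current pore, was at 89.8, 93.7 and 100 CPM in saline animals and at 38.6, 36.4 and 58.6 CPM in ASO animals, a log2 fold change of -1.14 ± 0.17 (adjusted p = 0.0297). The groups did not overlap. The call was lost without any 1 saline animal, ASO replicate 1 or 2 or OTV replicate 2 (0.0536 to 0.0955). KCNQ5 has its highest mean in neurons, at 138 CPM against 74.7 in OPCs. Neuron markers in OPCs summed to 1288 to 1598 CPM in saline and 1373 to 1568 in ASO animals, and of 8 only GAD1 did not overlap, being higher. Most of each sum was SYT1, at 766 to 1033 CPM in saline and 801 to 997 in ASO OPCs. In oligodendrocytes of these animals SYT1 was at 64.8 to 523 CPM, so the sum in OPCs is not a measure of neuron RNA alone. Oligodendrocyte markers summed to 317 to 577 and 756 to 1023 CPM. The part of RNA from these cell types in the KCNQ5 call was not tested. The count of 2 calls was 0 without any 1 saline animal, ASO replicate 1 or 2 or OTV replicate 2, 1 without ASO replicate 3, and 0 when only the 6 compared animals were fitted.

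No member was called for ASO against saline in the other 4 types by edgeR. In oligodendrocytes 16 of 89 members had an unadjusted p under 0.05, beside 11.9% of all genes, and DESeq2 called 7, beside 3.31%. By edgeR 0.14% of all genes were called higher and 0.255% lower. The member median there was -0.35 and 22 of 89 had a positive change. In myeloid nuclei 13 of 58 had an unadjusted p under 0.05, beside 10.3%, and DESeq2 called 4, beside 1.54%. There edgeR called 0.111% of all genes higher and 0.0868% lower, and the member median was -0.65. In astrocytes 4 of 64 had an unadjusted p under 0.05, beside 6.1%, DESeq2 called 1, beside 0.514%, and edgeR called 0.0147% higher and 0.0% lower. In neurons no member of 67 had an unadjusted p under 0.05, beside 2.47%, DESeq2 called none, beside 0.127%, and edgeR called 0.0% of genes in either direction. Beside these negative medians, neuron markers summed to 253 to 750 CPM in saline and 253 to 305 CPM in ASO oligodendrocytes, and to 102 to 333 and 70.5 to 145 CPM in myeloid nuclei. Their part in the medians was not tested. Without saline replicate 3, which had the most neurons, 1 member was called in each of these types.

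After OTV:MALAT1, OPCs had the most calls against saline: 12 of 74 tested members rose and 3 fell, beside 10.2% and 11.9% of all genes. CACNG4, CACNA1I, KCNA2, KCNIP1, CACNA2D2, KCNJ2, KCNMB4, SCN2A, CACNA1A and CACNA1D were among those that rose, and those that fell were KCNK2, KCNQ1 and KCNN2. The member share of calls in the higher direction was above that of all genes and the share in the lower direction below it, without a test of that difference. Without saline replicate 1 the count fell from 15 to 8. With the region score as a term it was 9, and the calls of KCNIP1, KCNJ2, KCNMB4, SCN2A, CACNA1D, KCNQ1 and KCNN2 were lost (adjusted p 0.0507 to 0.273). With thinned sums those of CACNA2D2, KCNJ2, KCNMB4, SCN2A and CACNA1A were lost (0.051 to 0.124).

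CACNG4 was at 318, 364 and 409 CPM in saline OPCs, at 345, 378 and 414 in ASO OPCs and at 638, 685 and 596 in OTV OPCs. All OTV animals lay above the other 6, with a change of 0.86 ± 0.12 against saline (adjusted p = 0.000709) and 0.85 ± 0.12 against ASO (adjusted p = 0.000597). CACNA1I, a low-threshold T-type calcium channel pore, was at 25.9, 23.4 and 23.1 CPM in saline, 20.1, 30.6 and 18.8 in ASO and 51.4, 71.1 and 43.8 in OTV OPCs. Again the OTV animals were the highest, by 1.24 ± 0.22 against saline (adjusted p = 0.00272) and 1.36 ± 0.22 against ASO (adjusted p = 0.00138).

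KCNA2 was at 5.63, 9.33 and 11.8 CPM in saline OPCs and 22.7, 18.2 and 26.7 in OTV OPCs, a rise of 1.41 ± 0.28 (adjusted p = 0.00449). It was low in OPCs, but the OTV and saline animals did not overlap. KCNIP1 was at 457, 628 and 287 CPM in saline, 401, 618 and 492 in ASO and 920, 1054 and 918 in OTV OPCs, a rise of 1.13 ± 0.25 against saline (adjusted p = 0.0103, and 0.0507 with the region score as a term). CACNA1A rose less, from 979, 869 and 873 to 1138, 1133 and 1095 CPM (0.35 ± 0.11, adjusted p = 0.0334), and this call was lost without any of 8 single animals, that is all but ASO replicate 3 (0.0505 to 0.131). SCN2A rose by 0.33 ± 0.10 (adjusted p = 0.0294), a call lost without any 1 saline or OTV animal (0.0639 to 0.0852). CACNA2D2, KCNJ2, KCNMB4 and CACNA1D rose by 0.72, 0.74, 0.61 and 0.42, and each call was lost without saline replicate 1 (adjusted p 0.054, 0.111, 0.118 and 0.142). The CACNA2D2 call was also lost without saline replicate 2, those of KCNJ2 and KCNMB4 without OTV replicate 3 and a second OTV animal, and that of CACNA1D without any animal but ASO replicate 1 or OTV replicate 3.

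Of the genes that fell in OPCs, KCNK2, the two-pore-domain channel TREK-1, was at 57.8, 58.6 and 52.8 CPM in saline, 48.8, 71.1 and 45.4 in ASO and 36.3, 31.1 and 25.1 in OTV animals. The OTV animals were lowest, by -0.80 ± 0.19 against saline (adjusted p = 0.0134). KCNQ1, the pore of the slow cardiac potassium current, was at 180, 218 and 263 CPM in saline, 256, 195 and 322 in ASO and 110, 74.2 and 35.8 in OTV OPCs. It fell by 1.49 ± 0.36 on the log2 scale against saline (adjusted p = 0.0191), a call lost without saline replicate 2 or 3 or OTV replicate 2 (0.0508 to 0.0612), and by 1.67 ± 0.36 against ASO (adjusted p = 0.0101). KCNN2, a small-conductance calcium-activated channel, was at 100, 72.0 and 83.3 CPM in saline and 48.3, 54.6 and 56.1 in OTV OPCs (-0.65 ± 0.21, adjusted p = 0.0462), and was no longer called without any 1 OTV animal or saline replicate 1 or 3 (0.0782 to 0.156). Of the 15 calls, 6 held under every alternative run, those of CACNG4, CACNA1I, KCNA2 and KCNK2 among them. Oligodendrocyte markers in OPCs summed to 317 to 577 CPM in saline, 756 to 1023 in ASO and 604 to 958 in OTV animals, so both treated groups lay above saline. CNTN2, an adhesion gene that was highest in oligodendrocytes, was not on the list of oligodendrocyte markers. Its level was 31.4, 46.1 and 28.0 CPM in saline, 52.7, 46.1 and 42.2 in ASO and 52.1, 65.7 and 67.8 in OTV OPCs. CNTN2 rose by 0.84 ± 0.18 in OTV against saline (adjusted p = 0.00793), and the ASO and OTV animals overlapped. Of other genes highest in oligodendrocytes in the list of channel-binding proteins below, LGI3 was also called higher. NALCN and ANK2 were not, with means of 282 and 798 CPM in saline and 270 and 746 in OTV OPCs. In oligodendrocytes themselves CNTN2 was also called higher in OTV, by 0.45 ± 0.10 against saline (adjusted p = 0.0117) and 0.42 ± 0.10 against ASO (adjusted p = 0.0126). KCNJ2 and KCNMB4, which rose in OPCs, are mainly oligodendrocyte genes. Neuron markers in OPCs summed to 1288 to 1598 CPM in saline, 1373 to 1568 in ASO and 1140 to 1298 in OTV animals, with SNAP91 higher and SYT1 and GAD1 lower in OTV without overlap against either group. SYT1 made up most of each sum, at 590 to 681 CPM in OTV OPCs, so the sum is not a measure of neuron RNA alone. CACNA1I, CACNA2D2, SCN2A and CACNA1D have their highest mean in neurons. The part of RNA from these cell types in the OPC calls was not tested. Myeloid markers there summed to 40.1 to 109, 55.5 to 79.2 and 42.7 to 66.4 CPM, with overlap between all groups.

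**Figure D4:**
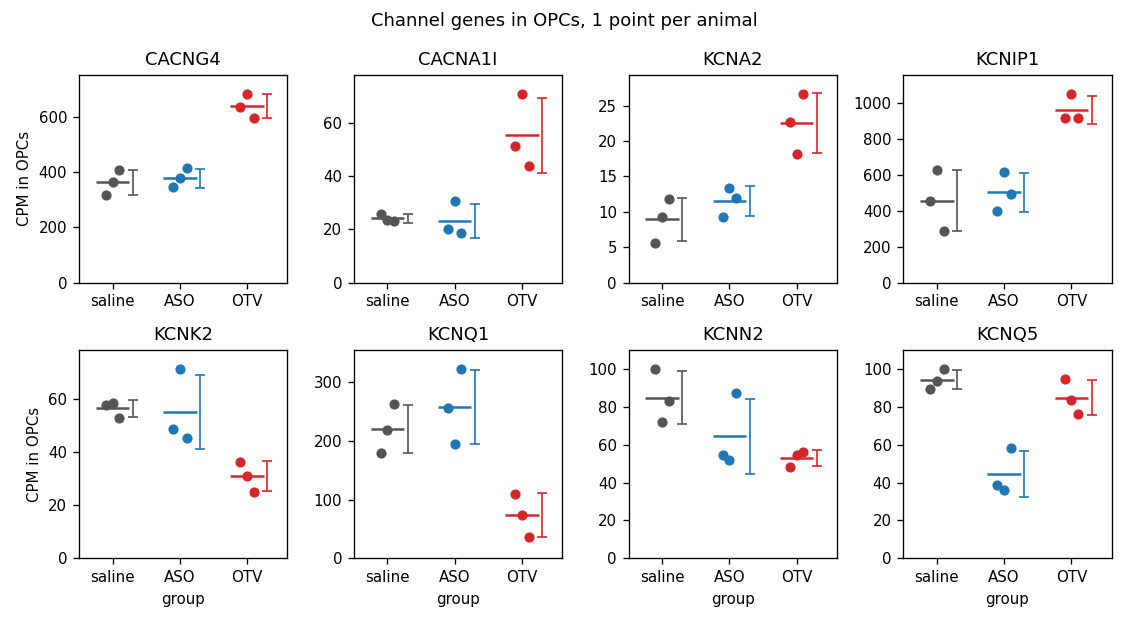
Level in CPM of 8 channel genes in OPCs of each animal (points), by group with the mean (line) and SD (bar), each panel with its own axis from 0. The OTV animals lie above the saline animals for CACNG4, CACNA1I, KCNA2 and KCNIP1, below them for KCNK2, KCNQ1 and KCNN2, and the ASO animals lie apart for KCNQ5.

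In oligodendrocytes 6 of 89 tested members rose and 4 fell in OTV against saline, beside 7.52% and 11.7% of all genes. KCNQ1 was at 68.6, 83.5 and 131 CPM in saline, 121, 113 and 152 in ASO and 33.6, 21.2 and 15.1 in OTV animals. As in OPCs the OTV animals were lowest, with a change of -1.95 ± 0.33 against saline (adjusted p = 0.00435) and -2.36 ± 0.33 against ASO (adjusted p = 0.00136). KCNIP1 was at 1.99, 6.19 and 4.59 CPM in saline, 3.06, 1.94 and 3.98 in ASO and 13.6, 16.8 and 18.0 in OTV oligodendrocytes, a rise of 1.98 ± 0.40 (adjusted p = 0.00903). Both calls held under every alternative run. KCNIP1 is thus a gene of OPCs and astrocytes that rose in oligodendrocytes at a level far below theirs. OPC markers in oligodendrocytes summed to 188 to 636 CPM in saline, 204 to 287 in ASO and 237 to 304 in OTV animals. Astrocyte markers there summed to 123 to 235, 140 to 188 and 141 to 236 CPM. The part of RNA from these 2 types in the KCNIP1 call was not tested.

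The other 8 calls in oligodendrocytes were each lost under at least 1 alternative. KCNV2, an electrically silent subunit, was at 1.84, 0.695 and 5.0 CPM in saline and 0.163, 0.122 and 0.215 in OTV animals (-3.64 ± 0.76, adjusted p = 0.0103), a call lost in the largest cluster alone and with the region score as a term (0.0747 and 0.0699). KCNAB1, a beta subunit of Kv1 channels, was at 53.2, 17.5 and 67.8 CPM in saline, 14.6, 6.9 and 19.5 in ASO and 7.82, 10.5 and 12 in OTV animals (-2.14 ± 0.51, adjusted p = 0.0202), and was lost without saline replicate 1 or any 1 OTV animal (0.056 to 0.0697). CACNA2D1 followed the same saline animals, with 113, 43.6 and 132 CPM in saline and 30.8, 32.2 and 24.1 in OTV oligodendrocytes (-1.68 ± 0.47, adjusted p = 0.0362), and was lost without saline replicate 1 or 3, ASO replicate 1 or any 1 OTV animal (0.0511 to 0.118). In saline and ASO animals KCNAB1 and CACNA2D1 were highest in replicate 3 and lowest in replicate 2, as the number of neurons was, and saline replicate 3 and ASO replicate 3 had the highest region scores. Both calls were lost with the region score as a term (0.131 and 0.187), and the part of neurons in them was not tested. CACNA1F, KCNJ6, KCNH7, KCNAB3 and SCN2B rose, all from levels under 10 CPM in every saline animal, and each of these calls was lost without saline replicate 1 (0.0535 to 0.153). All but CACNA1F of these 5 are mainly neuronal, as is KCNAB1, which fell. Of the 8 neuron markers, SLC17A6 and SNAP91 were higher and GAD1 lower without overlap in OTV than in saline oligodendrocytes, and their part was not tested. With the region score as a term 7 of the 10 calls were lost, those of CACNA1F, KCNJ6, KCNAB3 and SCN2B (0.0573 to 0.119) besides KCNV2, KCNAB1 and CACNA2D1. Without saline replicate 1 the count of calls was 3, without saline replicate 2 or OTV replicate 2 it was 6, without saline replicate 3 it was 16, and with sums thinned to equal totals it was 4.

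Astrocytes had 4 calls of 64 tested members, all higher in OTV than in saline, beside 6.27% of all genes called higher and 9.12% lower. KCNA2 was at 15.2, 18.1 and 11.0 CPM in saline, 20.0, 28.0 and 19.0 in ASO and 62.6, 46.1 and 54.9 in OTV astrocytes. Each OTV animal was above each of the others, by 1.91 ± 0.25 against saline (adjusted p = 0.00188) and 1.42 ± 0.25 against ASO (adjusted p = 0.00435), and both calls held under every alternative run. KCNH8 was at 8.59, 8.69 and 19.8 CPM in saline and 45.4, 59.4 and 27.7 in OTV astrocytes (1.90 ± 0.43, adjusted p = 0.0184), a call lost without saline replicate 1 or 2 or OTV replicate 1 (0.0513 to 0.074). CACNG4 was at 69.9, 194 and 186 CPM in saline and 305, 291 and 474 in OTV astrocytes (1.30 ± 0.38, adjusted p = 0.0469), and the call was lost without any 1 animal but OTV replicate 2 (0.0545 to 0.154). KCNC2 rose by 2.07 ± 0.57 (adjusted p = 0.0362) from 2.73 to 4.39 CPM in saline to 8.22 to 18.6 in OTV animals, and the call was lost without any 1 saline animal or OTV replicate 2 or 3 (0.0542 to 0.128). KCNC2 is mainly neuronal, and of the 8 neuron markers SLC17A6 and SNAP91 were higher and GAD1 lower without overlap in OTV than in saline astrocytes. KCNH8 is highest in oligodendrocytes, whose markers summed to 311 to 393 CPM in saline, 428 to 682 in ASO and 387 to 666 in OTV astrocytes. CNTN2, itself called higher in OTV oligodendrocytes, was at 5.46, 3.86 and 6.04 CPM in saline and 17.4, 13.3 and 20.8 in OTV astrocytes (1.88 ± 0.32, adjusted p = 0.00546). LGI3, NALCN and ANK2, also highest in oligodendrocytes, were not called here. Their means were 6.14, 140 and 1088 CPM in saline and 11.6, 190 and 874 in OTV astrocytes. The part of either cell type in these calls was not tested. The count was 1 without saline replicate 1, 2 without OTV replicate 1 or 3, and the member median was 0.46. With the region score as a term the CACNG4 call was lost (0.167).

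In myeloid nuclei 2 of 58 members rose and 1 fell, beside 4.76% and 7.26% of all genes. KCNJ2 was at 39.7, 43.0 and 43.8 CPM in saline, 45.8, 43.3 and 36.8 in ASO and 92.8, 70.7 and 71.7 in OTV animals, a rise of 0.86 ± 0.16 against saline (adjusted p = 0.00927) and 0.90 ± 0.16 against ASO (adjusted p = 0.00496). The OTV animals again stood above the other 6, and the call against saline was lost with thinned sums (0.0796) and with the region score as a term (0.0501). KCNJ2 is mainly an oligodendrocyte gene, and oligodendrocyte markers summed to 666 to 847 CPM in saline, 900 to 1458 in ASO and 875 to 1509 in OTV myeloid nuclei. CNTN2 was at 5.88, 5.62 and 19.9 CPM in saline, 8.17, 13.2 and 11.1 in ASO and 27.3, 32.2 and 49.1 in OTV myeloid nuclei, called higher against both groups (adjusted p 0.0368 and 0.0309). It was itself called higher in OTV oligodendrocytes against both groups. The part of oligodendrocyte RNA in the KCNJ2 call was not tested. CACNA1F was at 9.51, 3.37 and 9.29 CPM in saline, 2.13, 0.528 and 1.92 in ASO and 24.1, 69.8 and 33.2 in OTV animals, a rise of 2.47 ± 0.53 (adjusted p = 0.0167) that was lost without saline replicate 2 or OTV replicate 2 (0.0501 and 0.057). CACNB4, a calcium channel beta subunit, was at 559, 596 and 673 CPM in saline and 486, 430 and 360 in OTV animals (-0.57 ± 0.13, adjusted p = 0.0188), lost without OTV replicate 2 or 3 (0.0797 and 0.0601) and with the region score as a term (0.0845). Without saline replicate 3 the count of calls was 13.

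In neurons 4 of 67 members rose and 3 fell in OTV against saline, beside 2.52% and 4.3% of all genes. CACNA2D1 was at 539, 501 and 587 CPM in saline, 257, 217 and 419 in ASO and 33.2, 82.3 and 16.2 in OTV neurons (-3.69 ± 0.56, adjusted p = 0.0146). CACNA2D2, the related subunit, went the other way, from 44.2, 35.1 and 35.2 CPM in saline to 112, 165 and 191 in OTV neurons (1.92 ± 0.27, adjusted p = 0.0109). The levels of the 2 alpha2delta genes thus moved in opposite directions without overlap, and both calls were lost without saline replicate 1 (0.0796 each), that of CACNA2D1 also without OTV replicate 3 (0.052). HCN4 was at 3.04, 6.38 and 0.615 CPM in saline and 20.7, 28.1 and 17.9 in OTV neurons (3.28 ± 0.70, adjusted p = 0.0281). KCNAB1 was at 679, 274 and 921 CPM in saline and 98.2, 77.1 and 60.0 in OTV neurons (-3.15 ± 0.62, adjusted p = 0.0217).

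KCNK3, a two-pore-domain channel sensitive to acid, and CACNA1I rose and KCNK1 fell in neurons as well. The calls of HCN4, KCNAB1, KCNK3, CACNA1I and KCNK1 were each lost without saline replicate 1 or 3 and without OTV replicate 1 or 3 (0.0541 to 0.169), and all but KCNK3 also without OTV replicate 2. With the region score as a term these 5 calls were lost as well (0.0565 to 0.324). CACNA1I and KCNK1 were lost without ASO replicate 2 or 3 as well, and CACNA1I without saline replicate 2. The kinds of neuron differed between animals: PDE10A, a gene of striatal projection neurons, was at 1999, 354 and 6511 CPM in saline, 264, 1234 and 4383 in ASO and 358, 254 and 503 in OTV neurons. Saline replicate 2 and ASO replicate 1 thus lay within the OTV range. Markers of thalamic neurons summed to 1768 to 3375, 1353 to 3124 and 4273 to 5435 CPM. That sum is not specific to neurons, since it was 3655 to 8506 CPM in astrocytes, above neurons in every animal. Of its genes SLC17A6, TCF7L2 and LEF1 overlapped in neurons between OTV and either other group. The part of the kinds of neuron in the neuronal calls was not tested. The count was 0 without saline replicate 1, 2 without saline replicate 3 or OTV replicate 1, 1 without OTV replicate 3, and 3 with the region score as a term or with thinned sums.

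**Figure D5:**
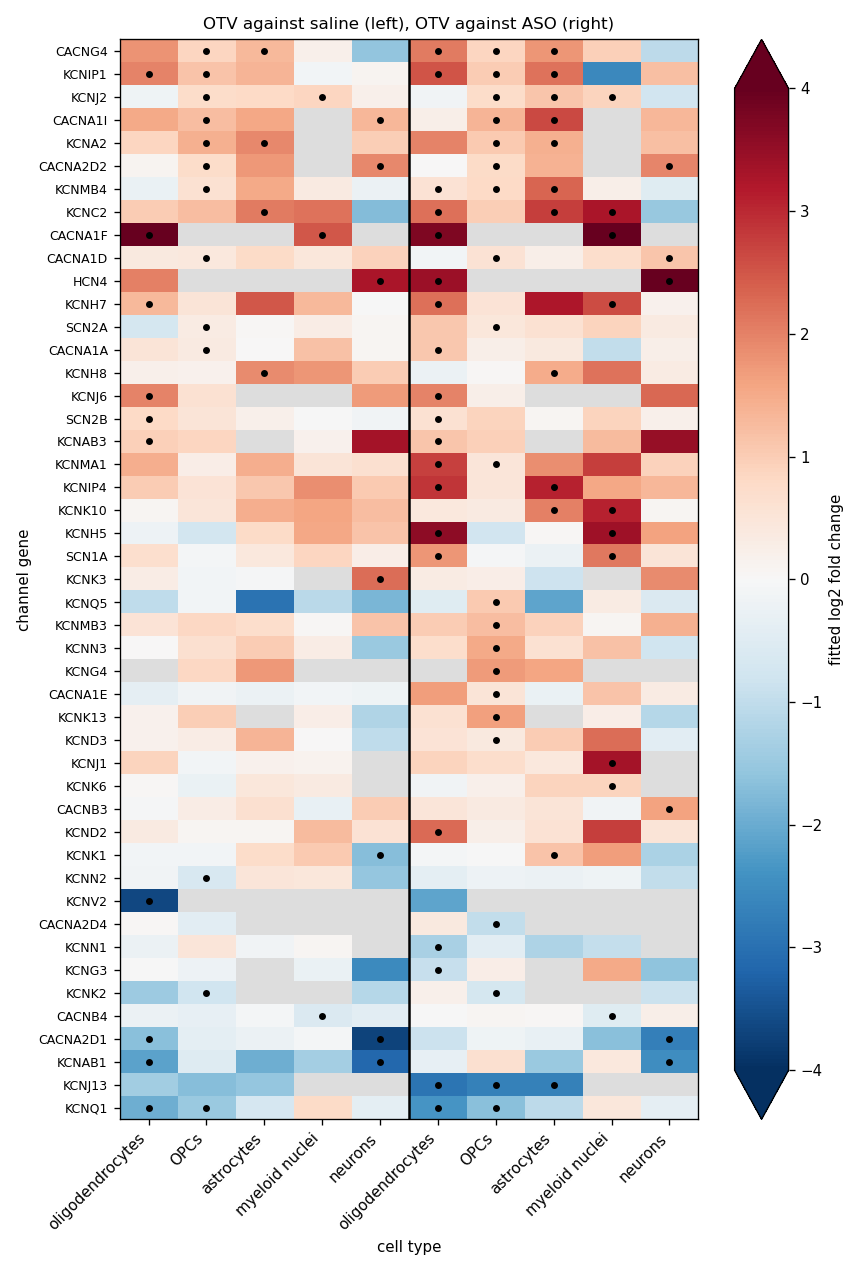
Fitted log2 fold change of 47 of the 49 genes called in any comparison, those named in the text, for OTV against saline and OTV against ASO in 5 cell types (colour, clipped at ±4; dots, called; grey, not tested). CACNG4, KCNIP1, KCNJ2 and KCNMB4 carry dots for higher levels in several types, and KCNQ1 for lower levels in OPCs and oligodendrocytes.

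Over the 5 types, 21 members rose and 8 fell in OTV against saline in at least 1 type, of 95 tested in any type, beside 12.8% and 18.1% of all 20,593 genes tested. In at least 2 types 7 rose and 3 fell, beside 5.7% and 7.68%, and none did so in 3. KCNA2 and CACNG4 rose in OPCs and astrocytes, KCNIP1 in OPCs and oligodendrocytes, and KCNJ2 in OPCs and myeloid nuclei. KCNQ1 fell in OPCs and oligodendrocytes, and CACNA2D1 and KCNAB1 in oligodendrocytes and neurons. Whether OPCs and oligodendrocytes responded differently was tested as an interaction with the animal as a block. None of the 82 members tested was called for a difference between the types for ASO against saline, beside 0.123% and 0.0703% of all genes, or for OTV against saline, beside 0.334% and 0.258%. At an unadjusted p under 0.05 there were 10 and 7, beside 8.31% and 13.3% of all genes, and 2 were called for OTV without saline replicate 3. Changes seen in OPCs and not called in oligodendrocytes are therefore not shown to differ between these types.

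Against the ASO group, OTV animals had more calls in OPCs, with 18 of 74 members higher and 4 lower, beside 12.7% and 14.4% of all genes. Beyond the genes above, KCNQ5 was higher by 1.04 ± 0.17 (adjusted p = 0.00153), from the low ASO level already given up to 94.9, 83.9 and 76.4 CPM. The first of these OTV values lay within the range of saline and the others below it. KCNMA1, the BK pore, was at 488, 479 and 528 CPM in ASO and 679, 700 and 581 in OTV OPCs (0.49 ± 0.11, adjusted p = 0.00864). Its accessory subunits KCNMB4 and KCNMB3 were higher as well, by 0.80 ± 0.17 (adjusted p = 0.0064) and 1.24 ± 0.28 (adjusted p = 0.00814), so that the BK pore and both of these subunits stood higher in OTV than in ASO OPCs. KCNN3 was at 8.17, 17.1 and 7.62 CPM in ASO and 19.7, 43.5 and 26.2 in OTV OPCs (1.53 ± 0.35, adjusted p = 0.00937). SCN2A was at 202, 239 and 216 CPM in ASO and 282, 271 and 284 in OTV OPCs (0.45 ± 0.10, adjusted p = 0.00631). These calls held under every alternative run. The gene KCNMB3 overlaps PIK3CA in the reference.

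In oligodendrocytes 17 of 89 members were higher and 4 lower in OTV than in ASO, beside 11.2% and 15.1% of all genes. KCNC2 was at 2.39, 2.68 and 2.64 CPM in ASO and 7.58, 12.1 and 13.9 in OTV oligodendrocytes (2.19 ± 0.36, adjusted p = 0.00272), and at 3.11, 5.96 and 8.97 in saline. KCNH7, a KCNH pore, was at 1.93, 2.09 and 2.75 CPM in ASO and 6.5, 15.3 and 7.42 in OTV oligodendrocytes (2.19 ± 0.37, adjusted p = 0.0029). KCNC2, KCNH7, HCN4, KCNJ6, KCNIP4, KCNAB3 and SCN2B, all called higher here, are 7 genes that neurons mainly carry, HCN4 through its OTV animals. KCNG3, among the 4 called lower, is mainly carried by neurons as well, as are 26 of the 81 members that reached 5 CPM in any type. For SCN2B the next type was oligodendrocytes, at 9.59 CPM against 22.6 in neurons. The SCN2B call was lost without any 1 animal but ASO replicate 2 (0.0512 to 0.156) and with thinned sums (0.268), that of KCNIP4 without ASO replicate 1 or 2 or OTV replicate 2 (0.0517 to 0.0661), and that of KCNAB3 without OTV replicate 2 (0.0532) and with thinned sums (0.0852). Neuron markers summed to 253 to 305 CPM in ASO and 325 to 413 in OTV oligodendrocytes, and SLC17A6, the glutamate transporter of thalamic neurons, was at 0.143, 1.7 and 0.0534 against 4.58, 3.78 and 8.66 CPM. In the nuclei named neurons SLC17A6 was itself low, at 13.9, 0 and 0 CPM in ASO and 31.8, 33.3 and 6.49 in OTV animals. In OTV replicate 3 it was thus lower in neurons than in oligodendrocytes. Of the 8 neuron markers in the files 3 were higher without overlap and 1, GAD1, lower. Their part in these calls was not tested.

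KCNMB4, which oligodendrocytes mainly carry, also differed from ASO. It was at 307, 293 and 280 CPM in ASO and 362, 378 and 491 in OTV oligodendrocytes (0.57 ± 0.17, adjusted p = 0.0361), with saline at 577, 572 and 375. The KCNMB4 call was lost without any 1 ASO animal or OTV replicate 2 or 3 (0.0607 to 0.123). It was also lost with the region score as a term (0.128) and in the largest cluster alone (0.0839). KCNH5, an EAG channel pore with its highest mean in neurons, was at 124, 61.7 and 129 CPM in saline, 3.12, 3.19 and 17.8 in ASO and 180, 21.5 and 62.4 in OTV oligodendrocytes. Its change was 3.59 ± 0.93 (adjusted p = 0.021), lost without ASO replicate 1 or 2 or OTV replicate 1 (0.0642 to 0.07). KCNN1, a small-conductance channel at a mean under 5 CPM in oligodendrocytes, was lower, from 8.2, 6.86 and 8.57 CPM in ASO to 2.69, 2.75 and 3.55 in OTV oligodendrocytes (-1.31 ± 0.24, adjusted p = 0.0039). The OTV animals lay within the saline range of 2.61 to 4.18 CPM and the ASO animals above it. KCNG3 was the other gene called lower without overlap, by -0.91 ± 0.28 (adjusted p = 0.0382), and the call was lost without saline replicate 1 or 2, ASO replicate 1 or 2 or any 1 OTV animal (0.0543 to 0.142) and in the largest cluster alone (0.244). The count of calls was 10 without ASO replicate 1 or 2, 8 without OTV replicate 2 and 13 without OTV replicate 3 or with thinned sums.

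In astrocytes 11 of 64 members were higher and 1 lower in OTV than in ASO, beside 9.51% and 12.5% of all genes. CACNG4 was at 132, 116 and 89.3 CPM in ASO and 305, 291 and 474 in OTV astrocytes (1.77 ± 0.38, adjusted p = 0.0119). KCNIP4, an accessory subunit of Kv4 channels that neurons carry, was at 14.1, 15.4 and 30.6 CPM in ASO and 89.7, 270 and 135 in OTV astrocytes (3.09 ± 0.58, adjusted p = 0.00812), with saline between at 30.4, 95.7 and 108. KCNJ2 rose from 10.5, 15.9 and 12.7 to 31.2, 24.8 and 21.7 CPM (1.12 ± 0.25, adjusted p = 0.0118). KCNMB4, KCNK1, KCNK10 and KCNH8 were called higher as well. With KCNJ2 these are the 5 genes with their highest mean in oligodendrocytes among those that reached 5 CPM. The share called higher among all genes that are highest in oligodendrocytes was not counted, so this number is not read further. Oligodendrocyte markers overlapped between the groups, at the sums given above, while CNTN2, at 13.1, 7.68 and 10.0 CPM in ASO astrocytes, did not overlap with OTV but was not called. Their part in these calls was not tested. The KCNJ2 call was lost with thinned sums (0.0608), and the calls of KCNK1, KCNK10 and KCNH8 were each lost without several single animals. The count was 7 without ASO replicate 1, 8 without OTV replicate 3 and 6 with thinned sums. The sum of neuron markers overlapped between the groups here, with 211 to 269 CPM in ASO and 217 to 311 in OTV astrocytes, but single markers did not. SLC17A6 was at 0.431, 1.1 and 0 CPM in ASO and 4.74, 5.32 and 13.6 in OTV astrocytes, and SYT1, a synaptic vesicle gene, at 16.7, 13.2 and 25.6 against 39.4, 86.9 and 34.7. In OTV replicate 3 SLC17A6 was lower in the nuclei named neurons, at 6.49 CPM, than in astrocytes. Of the 8 markers 4 were higher without overlap, and GAD1 was lower, at 91.8, 58.2 and 135 against 18.9, 11.5 and 12.1. Their part in the astrocyte calls was not tested.

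In myeloid nuclei 9 of 58 members were higher and 1 lower, beside 9.42% and 11.1% of all genes, and the member median was 0.90. CACNA1F was higher by 4.79 ± 0.63 (adjusted p = 0.00122) from the values above. KCNK6 was at 57.2, 57.1 and 56.8 CPM in ASO and 123, 110 and 81.0 in OTV animals (0.88 ± 0.17, adjusted p = 0.00666), with saline at 81.7, 69.6 and 89.0. KCNH5, KCNH7, KCNC2, KCNK10, KCNJ1 and SCN1A were also higher, all at under 46 CPM in every animal. The SCN1A call was lost without any 1 ASO or OTV animal (0.0595 to 0.128) and with thinned sums (0.0662), and that of KCNK10 without ASO replicate 1 or 2 (0.0566 and 0.0509). In the largest cluster alone, cluster 7, the calls of SCN1A and of CACNB4, the lower gene, were lost (0.115 and 0.204). Cluster 7 held 229, 278 and 220 of the 602, 647 and 587 myeloid nuclei in ASO and 879, 239 and 232 of the 1103, 370 and 406 in OTV animals. The part of this in the calls was not tested beyond that fit. Neuron markers in myeloid nuclei summed to 70.5 to 145 CPM in ASO and 167 to 214 in OTV animals, 5 of 8 higher without overlap and 1 lower. KCNK10 is mainly an oligodendrocyte gene, and oligodendrocyte markers overlapped between ASO and OTV myeloid nuclei while CNTN2 did not, as given above. Their part was not tested. The count was 18 without saline replicate 3 and 23 with the region score as a term. In neurons 4 of 67 members were higher and 2 lower, beside 2.04% and 3.19% of all genes. CACNA2D2 was higher by 1.95 ± 0.28 (adjusted p = 0.0141) and CACNA2D1 lower (-2.74 ± 0.54, adjusted p = 0.0275), as against saline. The CACNA2D2 call was lost without ASO replicate 3 or OTV replicate 3 (0.0973 and 0.0548), and that of CACNA2D1 without saline replicate 1, ASO replicate 2 or 3 or OTV replicate 1 or 3 (0.0531 to 0.124). CACNA1D, an L-type calcium channel pore, was at 438, 404 and 439 CPM in ASO and 888, 740 and 1084 in OTV neurons (1.11 ± 0.27, adjusted p = 0.0477), lost without any 1 animal but saline replicate 2 (0.0594 to 0.146). HCN4 and CACNB3 were the other genes called higher and KCNAB1 the other called lower, and these 3 calls were lost without saline replicate 1, ASO replicate 2 or 3 or OTV replicate 2 or 3 (0.0544 to 0.181). Leaving out single animals gave 0 to 9 calls, with 0 without ASO replicate 3 or OTV replicate 3, 1 without saline replicate 1, 2 without ASO replicate 2 or OTV replicate 1, and 3 without saline replicate 3 or OTV replicate 2.

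CACNG4, KCNC2, KCNIP1, KCNJ2 and KCNMB4 were higher than in ASO in 3 types each, beside 4.39% of all genes higher in at least 3. The CACNG4 call in oligodendrocytes was lost without saline replicate 2, ASO replicate 1 or 2 or OTV replicate 2 or 3 (0.0552 to 0.143), that of KCNIP1 in astrocytes without ASO replicate 3 or OTV replicate 3 (0.0645 and 0.073), and that of KCNJ2 in OPCs without ASO replicate 1 or OTV replicate 1 or 3 (0.052 to 0.0921). With the region score as a term the KCNIP1 calls in OPCs and astrocytes were lost (0.0542 and 0.0715). KCNJ13, the inward rectifier Kir7.1, was lower in 3, beside 5.56%, with 9.41, 8.36 and 1.3 CPM in ASO and 1.07, 0.888 and 0.534 in OTV OPCs (-2.69 ± 0.75, adjusted p = 0.022). Its level was similar in all 5 types, at means of 2.67 to 3.5 CPM, it was low in ASO replicate 3 in each of the 3 types, and its gene lies within GIGYF2 in the reference. All 3 KCNJ13 calls were lost without ASO replicate 1 and without OTV replicate 3 (0.0555 to 0.079).

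Proteins that bind, place or modulate these channels were followed through a list of 39 genes outside the set, of which 30 were in the files. In OPCs 4 of 28 tested rose and 1 fell in OTV against saline, beside 10.2% and 11.9% of all genes, and 8 were higher and 3 lower than in ASO, beside 12.7% and 14.4%. HVCN1, a voltage-gated proton channel, was at 36.9, 39.8 and 34.9 CPM in saline, 38.1, 27.9 and 36.5 in ASO and 12.5, 8.88 and 4.81 in OTV OPCs. The OTV animals were lowest, by -1.93 ± 0.26 against saline (adjusted p = 0.000498), and HVCN1 also fell in oligodendrocytes (-1.67, adjusted p = 0.00186) and astrocytes (-2.28, adjusted p = 0.00149). HVCN1 was highest in myeloid nuclei, at means of 112 CPM in saline and 105 in OTV animals, and was not called there against saline. NFASC, which anchors sodium channels at nodes and axon initial segments, rose in OPCs by 1.01 ± 0.16 (adjusted p = 0.00149), and LGI3, a ligand tied to Kv1 channels, by 1.39 ± 0.25 (adjusted p = 0.00264). LGI3 was highest in oligodendrocytes, at means of 76.6 CPM in saline and 149 in OTV animals against 13.9 and 36.5 in OPCs. It rose in oligodendrocytes too, by 1.01 ± 0.17 (adjusted p = 0.00351). The part of oligodendrocyte RNA in the OPC call of LGI3 was not tested. Of the list, 2 of 28 rose and 2 fell against saline in oligodendrocytes, beside 7.52% and 11.7% of all genes, and as many in astrocytes, beside 6.27% and 9.12%. In myeloid nuclei 1 of 25 rose, beside 4.76%, and in neurons none of 26 was called, beside 2.52% and 4.3%. For ASO against saline the list had 1 call, CASK, a scaffold protein, lower in OPCs by -0.70 ± 0.12 (adjusted p = 0.0394), and it was lost without any 1 animal (0.0517 to 0.14).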

How the data were processed

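Nuclei were sorted from frozen tissue and made into 10x Genomics libraries, per the labels' protocols. The submitters' processing notes name Cell Ranger 6.1.2, Seurat 4 and the human build GRCh38.p13, while the feature identifiers are those of the cynomolgus monkey; the sources used here do not give the annotation or the use of strand. The authors deposited 1 matrix of raw UMI counts and a table of nuclei with the animal, cell type, cluster and doublet score. The total count per nucleus in the deposited table equals the sum over the matrix in all 79,994 nuclei. The doublet score is the authors' deposited score, and the group tests kept nuclei whatever it was, in every alternative. The 5% of nuclei with the highest scores were left out only in a check of levels. There all 45 genes carried mainly by 1 type kept that type as their highest. Counts were summed per animal and cell type, taking the authors' types (minimum 15 nuclei per animal, so that neurons with 17 and 18 nuclei in 2 animals were tested). The sums were tested with edgeR 4.0.16 in R 4.3.3 (limma 3.58.1): TMM factors, the filterByExpr filter, robust quasi-likelihood fits of all 9 animals and Benjamini-Hochberg adjustment over all genes of a fit. The standard error is the size of the log2 fold change over the root of F. Levels and figures were computed with Python 3.11.15, numpy 2.4.6, pandas 2.3.3 and matplotlib 3.10.9. Scripts were tested on simulated data.

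The members and lists were chosen with earlier results of these data known. Named were up to 8 genes per type by ratio, up to 10 per direction for OPCs against oligodendrocytes, up to 5 called without overlap per direction, type and contrast, those called in 3 types, and a short list described in any case; other called members were named after their values were seen. P values set the difference between groups of 3 animals against a spread that each fit estimates from all its animals together. Gene overlaps come from the names in the RefSeq table of T2T-MFA8v1.1, which lists all 111 members, 50 of them overlapping another gene. Alternatives were DESeq2 1.42.0 (its test and its size factors), no filter on low counts, only the 6 compared animals, the largest cluster, a region term, thinned sums and each animal left out. For levels, alternatives were also other pseudocounts (0.5 and 5 CPM), a floor of 1 CPM and leaving out nuclei with high doublet scores. Some members entered every calculation and count but are not reported here.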

Additional observations from a re-analysis of the deposited data

How the results depend on the processing

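All 1757 alternative values of the 112 calls kept their direction, 1329 kept the call, and 38 calls held under every alternative in which the gene was tested. A gene that the filter removed under an alternative gave no value there. DESeq2's Wald test kept 112, the region term 73 and sums thinned to equal totals 65. Counts of channel genes called moved by more than 1.5 times in these cases. For ASO against saline, OPCs went from 2 to 0 with only the 6 compared animals and 1 with thinned sums, and the Wald test gave 7 in oligodendrocytes, 1 in astrocytes and 4 in myeloid nuclei, which had 1 without the filter. For OTV against saline, the Wald test gave 16 in oligodendrocytes, 13 in astrocytes, 7 in myeloid nuclei and 13 in neurons, the region term 6, 9, 5 and 3 in oligodendrocytes, OPCs, myeloid nuclei and neurons, and thinning 4 in oligodendrocytes and 3 in neurons. For OTV against ASO, the Wald test gave 17 in myeloid nuclei and 12 in neurons, the region term 23 and 3, thinning 13 in oligodendrocytes, 6 in astrocytes and 1 in neurons, and the 6 compared animals 3 in neurons. The cause was not tested. Leaving out each animal gave 0 to 2 in OPCs, 0 to 1 in oligodendrocytes and 0 to 1 in myeloid nuclei for ASO against saline; 8 to 15 in OPCs, 3 to 16 in oligodendrocytes, 1 to 5 in astrocytes, 2 to 13 in myeloid nuclei and 0 to 10 in neurons for OTV against saline; and 15 to 24, 8 to 24, 7 to 13, 7 to 18 and 0 to 9 for OTV against ASO. It gave 0 to 2 for the difference between OPCs and oligodendrocytes after OTV, 36 to 38 and 4 to 5 genes past 2-fold between these types, and 44 to 47 genes carried mainly by 1 type. The groups were compared unpaired, since each animal was in 1 group and the labels give no replicate numbers that link animals between groups. OPCs and oligodendrocytes were compared within each animal. Depth limits neurons most, where 2 ASO animals had 143,743 and 267,522 UMIs.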
